A study of Homo sapiens with 8 samples.

Results

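The genes described here encode the subunits of the proteasome, its dedicated assembly chaperones and its activators. They were taken as every platform gene symbol that starts with PSMA, PSMB, PSMC, PSMD, PSME or PSMG followed by a number, without PSMB8, PSMB9, PSMB10, PSMC3IP and pseudogenes. This gave 40 of the 20046 named genes on the array, each represented by its probe with the highest mean over the arrays. Of these 40 genes, 15 encode the core particle, 14 the cap, 7 assembly factors and 4 activators. PSMA7, PSMC5, PSMD7 and PSMD13 were not among the probe symbols used and were not analysed here.

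RNA came from DOHH2 cells, a human line established from a B-cell lymphoma of germinal centre type and grown in vitro. The cells received BAY1238097, an inhibitor of the BET bromodomain proteins that bind acetylated histones at active genes, or DMSO. Each treatment had 1 Illumina bead array at 4, 8, 12 and 24 h, so each group held 4 arrays of 1 cell line, with no second array at any time. No dose is stated in the labels. They also name no separate cultures. The treatment test rests on how the difference between the treatments varies from time to time within a single time course. A difference that changes with time adds to that spread, and part of it may be technical. The tests of slopes over time rest on scatter about lines fitted to the same arrays.

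The proteasome degrades proteins that carry ubiquitin chains. Its core is a barrel in which the outer rings hold alpha subunits (PSMA) and the inner rings hold beta subunits (PSMB), of which PSMB5, PSMB6 and PSMB7 cut peptide bonds. The cap binds ubiquitinated proteins, removes ubiquitin and threads the substrate into the barrel with a ring of ATPases (PSMC), a non-ATPase base and a lid (PSMD). Chaperones (PSMG and some PSMD proteins) help to build the core and the base and are not part of the finished particle, and PSME proteins can bind the barrel in place of the cap. Cells of the B lineage also make the immunoproteasome, in which PSMB8, PSMB9 and PSMB10 replace the standard catalytic subunits.

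Levels are log2 intensities after quantile normalization, which gives every array the same distribution, and differences are BAY1238097 minus DMSO. Mean probe intensities before normalization were 262 to 366 with BAY1238097 and 264 to 419 with DMSO, and 17764 to 19246 of 47231 probes per array were above background. At 8, 12 and 24 h the BAY1238097 array was dimmer than its DMSO partner, with a median raw log2 difference of -0.21, -0.20 and -0.26, against -0.0014 at 4 h. Of 7 B-cell markers named on the array, CD79A, CD79B and MME were above background on all 8 arrays, while PAX5 and BCL6 were above it on none, and of 4 T-cell and 4 myeloid markers 0 were above it on all 8. MYC, a known target of BET inhibition, averaged 10.50 with BAY1238097 and 11.63 with DMSO, a fall of 1.13 ± 0.21 on the log2 scale (SE, n = 4 arrays per group, limma adjusted p = 0.0104, 0.0558 without the 8 h arrays).

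With BAY1238097, 13 of the 38 proteasome genes that could be tested passed the threshold (limma with time as a factor, adjusted p under 0.05 over all 10475 genes tested). The fallers were 11 genes, which were the core genes PSMA2, PSMA3, PSMA6, PSMB5 and PSMB6, the cap gene PSMC3, the assembly genes PSMG1, PSMG3, PSMG4 and PSMD5, and the activator PSME2. The risers were 2, the assembly chaperone PSMD10 and the activator PSME4. Changes spanned -0.71 to 0.39 on the log2 scale, and the median was -0.13 over the 38 genes, against 0.01 over all genes tested. Of all genes tested, 30.1% passed in either direction, 14.7% fell and 15.4% rose. The proteasome shares were 34.2% in either direction, 28.9% lower and 5.26% higher, so the total was near the background, with a larger share lower and a smaller share higher than over the array, a comparison that was not tested. Without the 12 h arrays 6 genes passed, all lower, beside 643 genes lower and 642 higher over the array. The split depended on the scaling: with arrays scaled to a common median in place of quantile normalization, 21 proteasome genes fell and 0 rose, beside 2422 genes lower and 806 higher over the array.

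The promoters of the 4 genes that fell most and of the 2 that rose are shown because the regulators of proteasome genes act there. Each is the 250 bases before the gene's start in RefSeq, build GRCh38.p14, written in the direction of transcription, with capitals marking the searched motifs on either strand: TGACNNNGC, the core of the element read by NFE2L1 and NFE2L2, CCAAT, the box bound by NFY, and a pair of GAAA runs 2 bases apart, the core of interferon-responsive elements. CACGTG, the E-box of MYC and MAX, was searched too. The windows are chr6:3258697-3258946 on the plus strand for PSMG4, chr14:24146611-24146860 on the minus strand for PSME2, chr21:39183452-39183701 on the minus strand for PSMG1, chr14:58244593-58244842 on the plus strand for PSMA3, chrX:108091543-108091792 on the minus strand for PSMD10 and chr2:53970994-53971243 on the minus strand for PSME4.
PSMG4: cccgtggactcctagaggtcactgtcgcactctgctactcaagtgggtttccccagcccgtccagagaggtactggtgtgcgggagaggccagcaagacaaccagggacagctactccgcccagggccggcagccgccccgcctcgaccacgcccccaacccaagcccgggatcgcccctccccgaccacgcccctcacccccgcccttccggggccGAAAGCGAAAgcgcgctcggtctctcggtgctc
PSME2: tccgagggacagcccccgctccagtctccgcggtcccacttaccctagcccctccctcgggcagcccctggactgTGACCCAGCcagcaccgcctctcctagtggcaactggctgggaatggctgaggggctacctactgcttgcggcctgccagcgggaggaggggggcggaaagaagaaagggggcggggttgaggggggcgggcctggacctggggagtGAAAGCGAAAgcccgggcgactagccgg
PSMG1: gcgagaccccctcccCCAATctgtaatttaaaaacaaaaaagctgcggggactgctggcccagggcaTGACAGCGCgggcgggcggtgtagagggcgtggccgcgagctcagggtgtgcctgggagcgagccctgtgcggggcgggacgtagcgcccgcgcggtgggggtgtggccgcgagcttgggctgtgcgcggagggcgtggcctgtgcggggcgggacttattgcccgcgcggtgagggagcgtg
PSMA3: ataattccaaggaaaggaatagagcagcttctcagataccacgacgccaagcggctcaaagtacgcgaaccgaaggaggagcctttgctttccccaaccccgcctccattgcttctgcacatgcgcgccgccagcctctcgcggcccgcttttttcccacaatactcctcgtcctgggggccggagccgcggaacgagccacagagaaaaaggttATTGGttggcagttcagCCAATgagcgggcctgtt
PSMD10: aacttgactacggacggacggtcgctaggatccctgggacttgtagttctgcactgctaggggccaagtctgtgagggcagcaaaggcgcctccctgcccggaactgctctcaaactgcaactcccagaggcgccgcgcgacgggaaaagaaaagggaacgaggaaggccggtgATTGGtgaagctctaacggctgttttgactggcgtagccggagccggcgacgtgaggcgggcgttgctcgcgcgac
PSME4: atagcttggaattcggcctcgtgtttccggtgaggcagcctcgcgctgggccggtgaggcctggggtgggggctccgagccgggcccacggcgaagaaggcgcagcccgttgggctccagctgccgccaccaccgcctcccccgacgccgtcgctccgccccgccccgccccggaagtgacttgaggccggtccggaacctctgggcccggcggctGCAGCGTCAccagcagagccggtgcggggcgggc

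The GAAA pair began 33 bases before the start of PSMG4 and 28 before that of PSME2, both reading GAAAGCGAAA on the printed strand. TGACNNNGC was found in PSME2 (175 bases before the start), PSMG1 (183) and, on the opposite strand, PSME4 (34). CCAAT stood in PSMG1 (235), in PSMA3 on both strands (35 and 18) and in PSMD10 on the opposite strand (76), and none of the motifs overlapped another. Promoters of 35 of the 40 genes were in the table, 41 in all, searched over 300 bases from 250 before to 50 after the start. TGACNNNGC was in 31.7% of them (13 genes), against 13.3% of all 35116 promoters of that length. CCAAT was in 41.5% (17 genes) against 34.6%, and CACGTG in 7.32% (3 genes) against 7.26%. The GAAA pair, which was added after the values were seen, was in 12.2% (PSMA4, PSMB4, PSME1, PSME2 and PSMG4) against 3.57%. A match describes these letters and was not tested as a binding site.

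**Figure D1:**
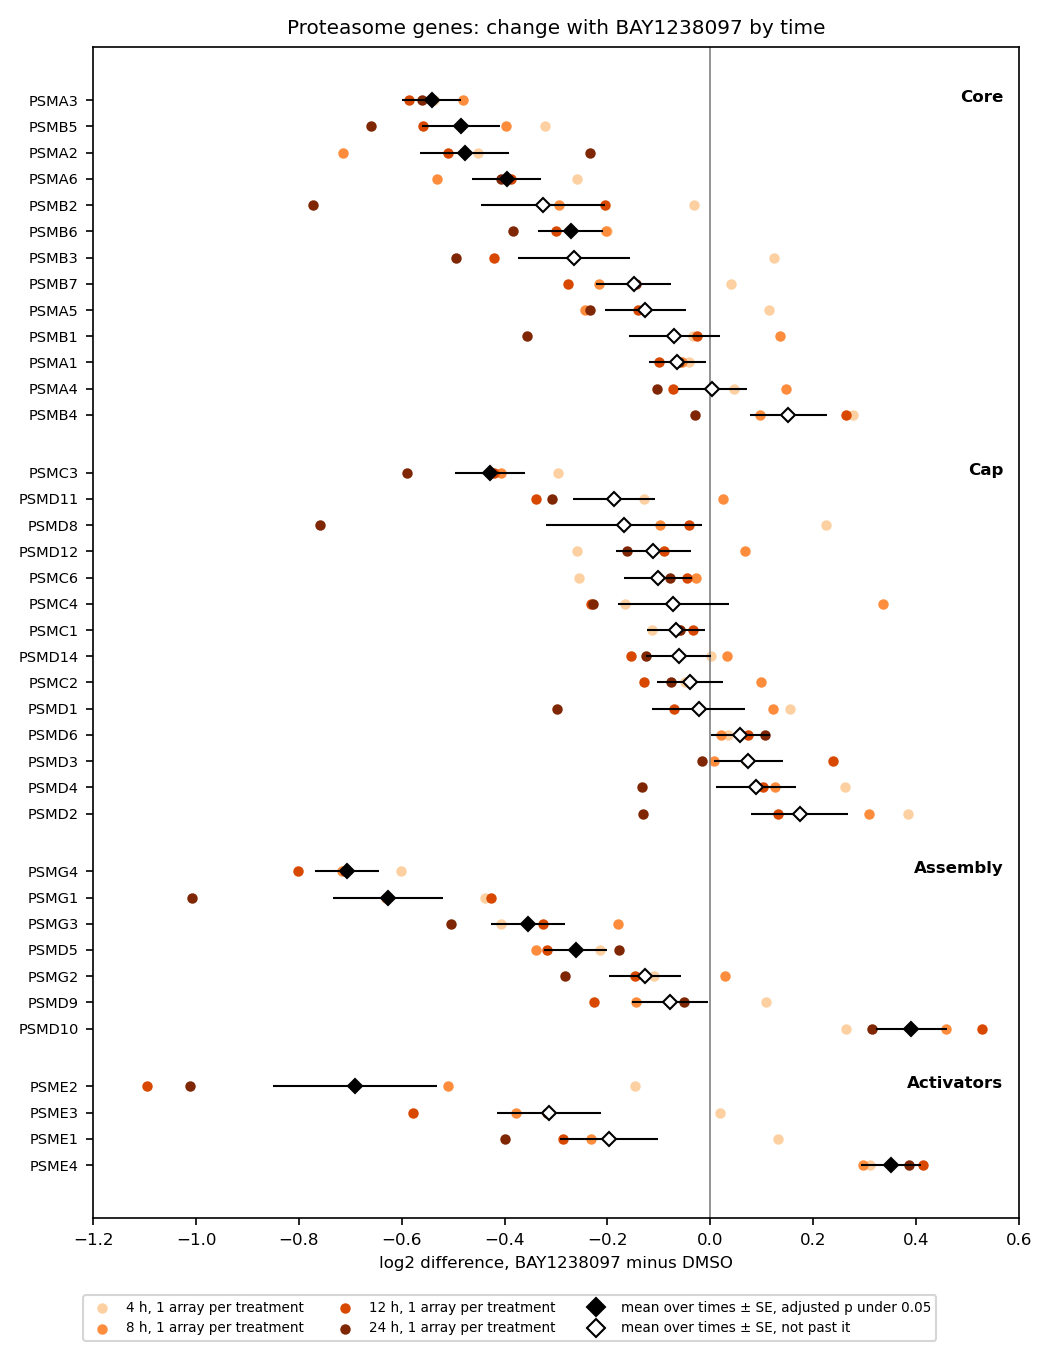
Log2 difference, BAY1238097 minus DMSO, on the x axis for each of the 38 tested proteasome genes, by group, with 1 dot for each time point and a diamond with SE for the mean over times, filled where the limma adjusted p was under 0.05. Filled diamonds lie left of 0 for 11 genes and right of it for PSMD10 and PSME4, and the cap holds 1 filled diamond, PSMC3.

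Of the 13 tested genes of the core particle 5 fell and 0 rose, with a median of -0.26. That is 38.5% lower, against 14.7% of all genes tested, a difference that was not tested. By ring, 3 of 6 alpha genes and 2 of 7 beta genes passed, with medians of -0.26 each. The median of the core genes was -0.03, -0.24, -0.28 and -0.36 from the earliest time to the latest, values from 1 array per treatment with no test.

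Among the catalytic subunits, PSMB5, which carries the chymotrypsin-like activity, read 10.07, 10.46, 10.35 and 10.02 at 4, 8, 12 and 24 h with BAY1238097, against 10.39, 10.85, 10.91 and 10.68 with DMSO. It was lower at all 4 times, by 0.32 at 4 h and by 0.66 at 24 h, although the ranges of the groups overlapped. Its fall was 0.48 ± 0.08 on the log2 scale, or 1.40-fold (SE, n = 4, limma adjusted p = 0.0061). PSMB6, the caspase-like subunit, read 11.75, 11.75, 11.61 and 11.34 with BAY1238097, against 11.95, 11.95, 11.91 and 11.72 with DMSO. It fell by 0.27 ± 0.06 (adjusted p = 0.02), and this call was lost without the 8, 12 or 24 h arrays (0.0702, 0.103 and 0.0702). PSMB7, the trypsin-like subunit, read 11.34, 11.32, 11.35 and 11.32 with BAY1238097, against 11.30, 11.54, 11.63 and 11.46 with DMSO. Its difference of -0.15 ± 0.07 did not pass (adjusted p = 0.167, 0.0386 without the 4 h arrays).

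PSMA3, an alpha-ring subunit, had the lowest change of the core. It read 10.94, 10.93, 10.76 and 10.47 with BAY1238097, against 11.48, 11.41, 11.35 and 11.03 with DMSO, and the groups did not overlap. Its difference was nearly the same at each time, from -0.48 to -0.59, and its fall was 0.54 ± 0.06, or 1.46-fold (limma adjusted p = 0.00205). A second PSMA3 probe fell by 0.67 (adjusted p = 0.00384 over 18711 probes, of which 25.4% passed).

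PSMA2, also of the alpha ring, read 9.05, 8.82, 9.03 and 9.11 with BAY1238097, against 9.51, 9.53, 9.54 and 9.34 with DMSO, with no overlap. The gap was widest at 8 h (-0.71) and narrowest at 24 h (-0.23), and the fall was 0.48 ± 0.09 (adjusted p = 0.00938, 0.0536 without the 12 h arrays). PSMA6 read 12.26, 11.91, 11.83 and 11.76 with BAY1238097, against 12.52, 12.44, 12.22 and 12.17 with DMSO, lower at every time with overlapping ranges. It fell by 0.40 ± 0.07 (adjusted p = 0.00775), and its second probe fell by 0.34 (0.00943).

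PSMB2, a non-catalytic beta subunit, read 10.85, 10.89, 11.04 and 10.58 with BAY1238097, against 10.88, 11.18, 11.25 and 11.36 with DMSO. The 24 h pair stood apart with a difference of -0.77, and the mean of -0.33 ± 0.12 did not pass (adjusted p = 0.0866, 0.0302 without the 4 h arrays). The other core genes, PSMA1, PSMA4, PSMA5, PSMB1, PSMB3 and PSMB4, had changes from -0.26 to 0.15 and did not pass, although PSMA5 and PSMB3 did without the 4 h arrays (0.0402 and 0.00691). PSMA1 differed between its probes: the brightest gave -0.06, and a second one gave -0.38 ± 0.09 (adjusted p = 0.0229). PSMA8, a testis subunit, was above background on 1 of 8 arrays and PSMB11, a thymus subunit, on 0, so neither was tested.

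**Figure D2:**
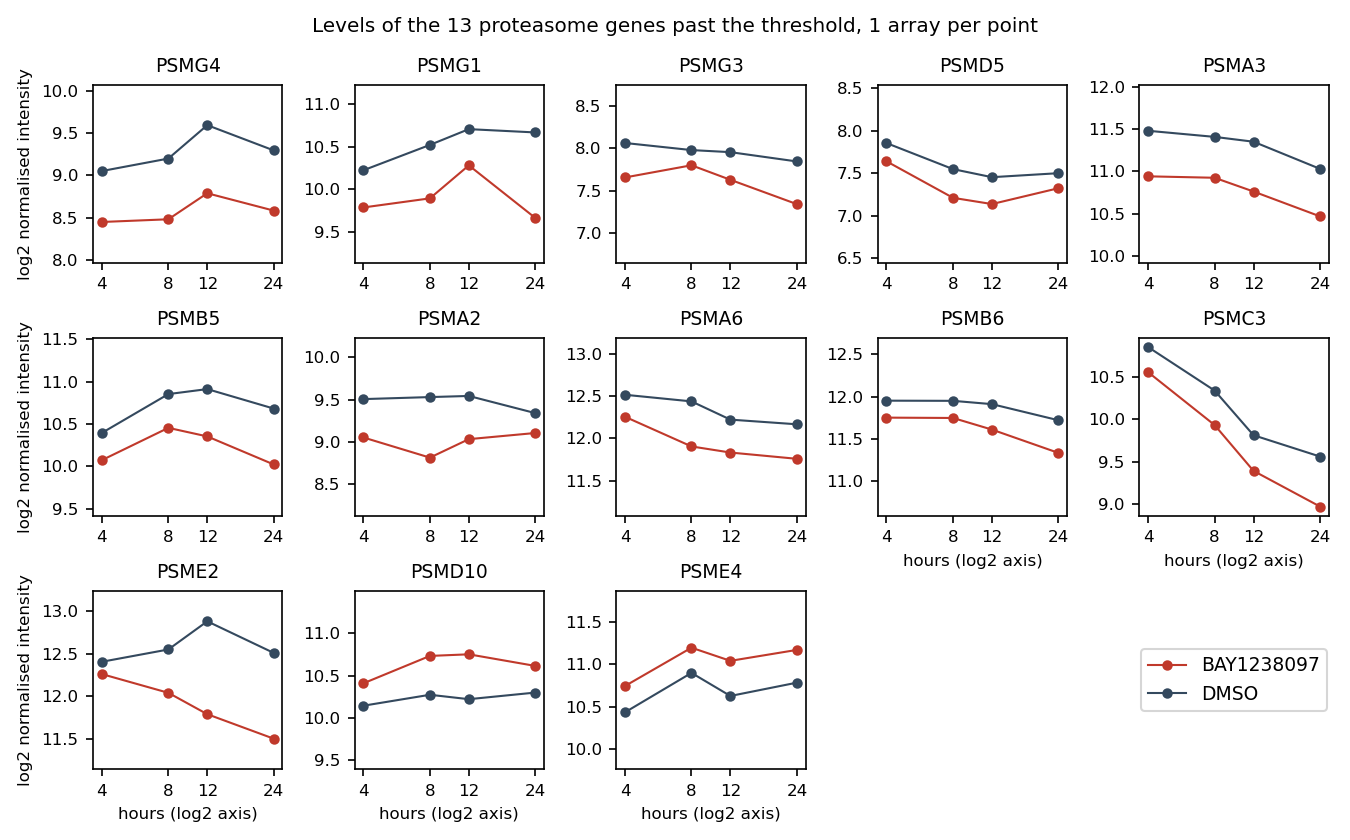
Log2 normalised intensity against hours (log2 axis) for the 13 proteasome genes past the threshold, with 1 array per point; every panel spans the same number of log2 units. BAY1238097 lies below DMSO at all 4 times in 11 panels and above it in those of PSMD10 and PSME4, and PSMC3 declines along both lines.

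The cap held 1 call. PSMC3 fell and the other 13 cap genes did not pass, with a median of -0.06 over the 14. The medians were -0.07 for the 5 ATPases, 0.09 for the 3 other base subunits and -0.09 for the 6 lid subunits. By time the cap median was -0.02, 0.03, -0.06 and -0.13 at 4, 8, 12 and 24 h. The share of genes called in the cap was 7.14%, against 38.5% in the core and 30.1% over the array. The difference between the groups of genes was not tested.

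PSMC3, an ATPase of the base, read 10.56, 9.93, 9.39 and 8.97 with BAY1238097, against 10.85, 10.34, 9.81 and 9.56 with DMSO. The level declined along both time courses, so the ranges overlapped, and BAY1238097 was the lower at each time, by 0.30 at 4 h and 0.59 at 24 h. The fall was 0.43 ± 0.07, or 1.35-fold (limma adjusted p = 0.00665). With time left out of the model the adjusted p was 0.508.

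PSMD8, a lid subunit, read 8.96, 9.05, 8.77 and 8.14 with BAY1238097, against 8.74, 9.15, 8.81 and 8.90 with DMSO. Its 24 h array with BAY1238097 was the lowest of the 8, and the mean of -0.17 ± 0.15 did not pass (adjusted p = 0.45). PSMD2, a large scaffold subunit of the base, read 9.51, 10.04, 10.08 and 9.66 with BAY1238097, against 9.12, 9.73, 9.95 and 9.79 with DMSO. It was the higher with BAY1238097 at 4, 8 and 12 h and the lower at 24 h, for a mean of 0.17 ± 0.10 (adjusted p = 0.216). PSMD11 and PSMD12, both of the lid, had differences of -0.19 ± 0.08 (adjusted p = 0.122) and -0.11 ± 0.07 (0.297). PSMC1, PSMC2, PSMC4, PSMC6, PSMD1, PSMD3, PSMD4, PSMD6 and PSMD14 lay between -0.10 and 0.09. PSMD14, the deubiquitinase of the lid, was at -0.06 ± 0.06 (adjusted p = 0.514).

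**Figure D3:**
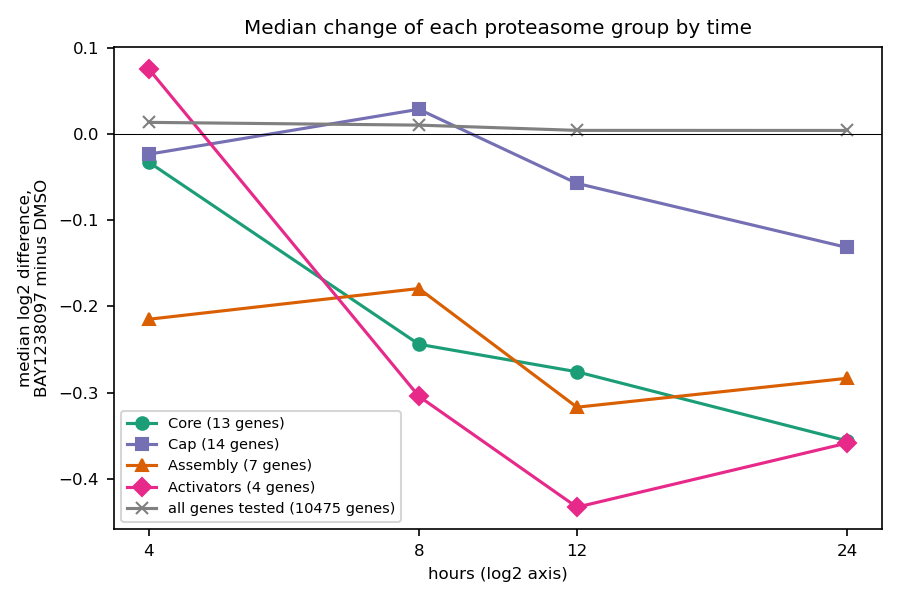
Median log2 difference, BAY1238097 minus DMSO, of the core, cap, assembly and activator genes and of all genes tested, against hours (log2 axis), from 1 array per treatment at each time. At 24 h the core and activator medians are at -0.36, the assembly median at -0.28 and the cap median at -0.13, while all genes stay near 0.

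Of the 7 assembly factors tested, 4 fell, 1 rose and 2 did not pass. The shares were 57.1% lower and 14.3% higher, against 14.7% and 15.4% of all genes tested, and with 7 genes the difference was not tested. The group had a median of -0.26 and medians by time of -0.21, -0.18, -0.32 and -0.28. PSMG1, PSMG2, PSMG3 and PSMG4 act in pairs on the alpha ring, while PSMD5, PSMD9 and PSMD10 act on the base.

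PSMG4 read 8.45, 8.48, 8.79 and 8.59 with BAY1238097, against 9.05, 9.20, 9.59 and 9.29 with DMSO, with no overlap and differences of -0.60 to -0.80. Its fall of 0.71 ± 0.06, or 1.63-fold, was the lowest change among the proteasome genes (limma adjusted p = 0.00129). A second, dim PSMG4 probe, above background on 7 of 8 arrays, gave -0.00 (adjusted p = 0.999). Its partner PSMG3 read 7.66, 7.80, 7.63 and 7.34 with BAY1238097, against 8.06, 7.98, 7.96 and 7.85 with DMSO, also without overlap. PSMG3 fell by 0.35 ± 0.07 (adjusted p = 0.0134, 0.0655 without the 12 h arrays).

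PSMG1 read 9.78, 9.89, 10.28 and 9.66 with BAY1238097, against 10.22, 10.52, 10.71 and 10.67 with DMSO. The difference was -0.44, -0.63 and -0.43 at 4, 8 and 12 h and -1.01 at 24 h, with an overlap between the BAY1238097 array at 12 h and the DMSO array at 4 h. It fell by 0.63 ± 0.11, or 1.54-fold (adjusted p = 0.00802), and a second probe fell by 0.65 (0.00744). PSMG2, its partner, read 10.61, 10.85, 11.09 and 11.07 with BAY1238097, against 10.72, 10.82, 11.23 and 11.36 with DMSO. PSMG2 was at -0.13 ± 0.07 and did not pass (adjusted p = 0.219).

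Of the base chaperones PSMD5 fell, PSMD10 rose and PSMD9 did not pass. PSMD5 read 7.64, 7.21, 7.14 and 7.32 with BAY1238097, against 7.85, 7.55, 7.45 and 7.50 with DMSO, lower at every time with overlapping ranges. It fell by 0.26 ± 0.06 (adjusted p = 0.0207, 0.105 and 0.113 without the 8 and the 12 h arrays). PSMD9, above background on 7 of 8 arrays, was at -0.08 ± 0.07 (adjusted p = 0.472).

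PSMD10, also known as gankyrin, read 10.41, 10.73, 10.75 and 10.61 with BAY1238097, against 10.14, 10.27, 10.22 and 10.30 with DMSO. It was the only proteasome gene to lie wholly above DMSO, and it rose by 0.39 ± 0.07, or 1.31-fold (limma adjusted p = 0.00876). Its other probes gave 0.20 and 0.19 and did not pass (adjusted p = 0.128 and 0.16). The call was lost without the 8 h (0.0553) or the 12 h arrays (0.056) and under median scaling, where the difference was 0.17 (0.127).

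Of the 4 activators 1 fell, 1 rose and 2 did not pass. The shares were 25% lower and 25% higher, against 14.7% and 15.4% of all genes tested, and with 4 genes the difference was not tested. PSME2, a subunit of the interferon-inducible 11S activator, read 12.26, 12.04, 11.79 and 11.50 with BAY1238097, against 12.41, 12.55, 12.88 and 12.51 with DMSO. The groups did not overlap, and the difference was -0.15, -0.51, -1.10 and -1.01 in the order of the times. The fall was 0.69 ± 0.16, or 1.61-fold (limma adjusted p = 0.0201), and the call was lost without the 8, 12 or 24 h arrays (0.0665, 0.0851 and 0.0541).

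PSME1, its partner in that ring, read 12.47, 12.34, 12.43 and 12.31 with BAY1238097, against 12.34, 12.57, 12.72 and 12.71 with DMSO. It was the higher with BAY1238097 at 4 h and the lower after that, and -0.20 ± 0.10 did not pass (adjusted p = 0.167, 0.0128 without the 4 h arrays). PSME3, the nuclear 11S activator, read 8.88, 9.15, 9.07 and 9.02 with BAY1238097, against 8.86, 9.53, 9.64 and 9.34 with DMSO. Its mean was -0.31 ± 0.10 (adjusted p = 0.0569, 0.00644 without the 4 h arrays), and its second probe passed at -0.40 (0.035).

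PSME4, the large PA200 activator, read 10.74, 11.20, 11.04 and 11.17 with BAY1238097, against 10.44, 10.90, 10.63 and 10.79 with DMSO. It was higher at each time by 0.30 to 0.41 although the ranges overlapped, and it rose by 0.35 ± 0.06, or 1.28-fold (limma adjusted p = 0.00743). Without the 12 h arrays the adjusted p was 0.0533, and under median scaling the difference was 0.14 (0.149).

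Over all groups, 15 proteasome genes were lower at all 4 times and 3 were higher, 39.5% and 7.89% of the 38, against 22.3% and 24.4% of all genes tested. The groups did not overlap for PSMA2, PSMA3, PSMG3, PSMG4 and PSME2, with BAY1238097 lower (9.55% of all genes tested), and for PSMD10, with BAY1238097 higher (10.4%). Of the 14 genes with more than 1 probe above background, the probes shared 1 sign for 12, the exceptions being PSMC4 and PSMC6. Pseudogenes named after 19 of the 40 genes are in the gene table, among them PSMA2, PSMA3, PSMA6, PSMC3, PSMD10, PSME2 and PSMG3, and whether their transcripts add to these probes was not tested.

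The inducible counterparts of the catalytic subunits, PSMB8, PSMB9 and PSMB10, all fell. PSMB8, which takes the place of PSMB5, read 9.52, 9.08, 9.11 and 9.18 with BAY1238097, against 9.54, 9.59, 10.07 and 10.21 with DMSO. The difference was -0.02 at 4 h and -1.03 at 24 h, and the fall was 0.63 ± 0.17 (limma adjusted p = 0.0312, 0.0963, 0.13 and 0.0816 without the 8, 12 or 24 h arrays). For PSMB9, which replaces PSMB6, the difference was -0.12, -0.38, -0.39 and -0.58 at 4, 8, 12 and 24 h. PSMB9 fell by 0.37 ± 0.08 (adjusted p = 0.0195, 0.0864, 0.0898 and 0.056 without the same arrays). PSMB10, which replaces PSMB7, differed by -0.22, -0.46, -0.36 and -0.55 and fell by 0.40 ± 0.07 (adjusted p = 0.00967, 0.0583 and 0.0516 without the 8 or 12 h arrays). Of the 6 immunoproteasome genes listed, which also hold PSME1, PSME2 and POMP, 4 fell. The share lower was 66.7% of these 6 genes and 100% of PSMB8, PSMB9 and PSMB10, against 14.7% of all genes tested. With so few genes the difference was not tested.

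**Figure D4:**
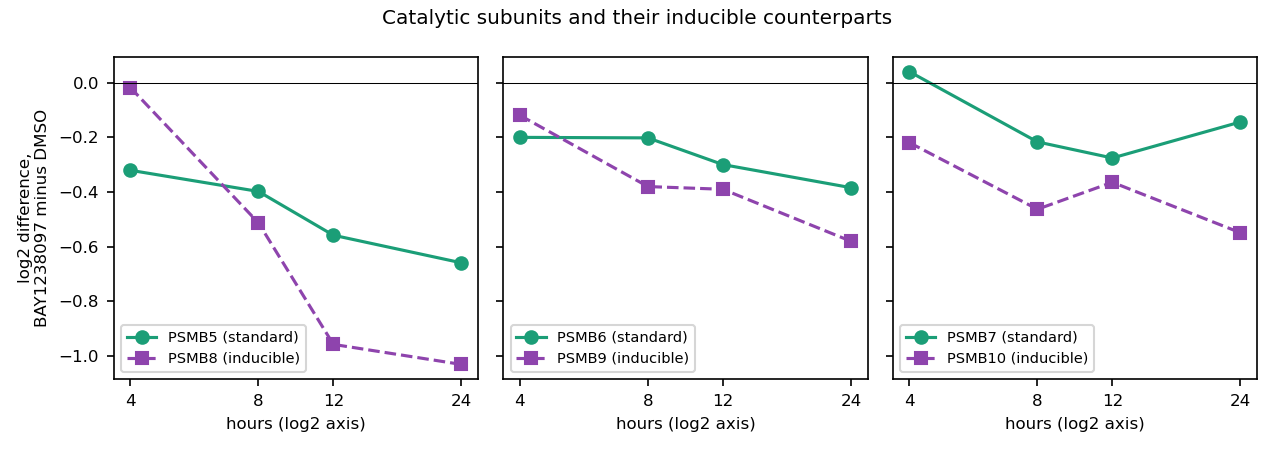
Log2 difference, BAY1238097 minus DMSO, against hours (log2 axis) for each standard catalytic subunit (circles) and the inducible subunit that replaces it (squares), from 1 array per treatment at each time. PSMB8 is at -0.02 at 4 h and -1.03 at 24 h, while PSMB5 is at -0.32 and -0.66.

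No proteasome gene passed the test of whether the treatment difference changed with time, as a slope per doubling of hours (limma, adjusted p under 0.05 for 0 of 38 genes and for 3.50% of all genes tested, 1.81% upward and 1.69% downward). At an unadjusted p under 0.05 there were 9 of 38, all with the difference moving downward, against 2257 of 10475 genes, 1097 of them downward. The lowest slopes were -0.37 ± 0.09 for PSME2 (adjusted p = 0.0776) and -0.36 ± 0.08 for PSMD8 (0.0618), and the highest 0.10 ± 0.08 for PSMA2 (0.549) and 0.06 ± 0.06 for PSMC6 (0.621). The count of 0 moved to 4 without the 4 h arrays, to 2 without the 8 h arrays and to 3 without the 24 h arrays. The counts over all genes in these refits are not given here, so these values were not compared with the array. PSMB8, outside the list, passed with -0.41 per doubling (adjusted p = 0.0413).

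Along the BAY1238097 time course alone, PSMC3 declined by 0.63 ± 0.07 per doubling of hours (limma adjusted p = 0.00644), 1 call among 38 genes against 9.11% of all genes tested (4.92% increasing, 4.19% declining). PSMD8 had -0.33 ± 0.10 (0.0786), PSMC4 0.33 ± 0.23 (0.387) and PSMG2 0.19 ± 0.06 (0.0948), none of which passed. Along the DMSO time course 3 genes passed, against 7.72% of all genes tested (3.56% increasing, 4.16% declining). PSMC3 declined by 0.52 ± 0.07 per doubling (adjusted p = 0.0304), PSMC1, another ATPase, by 0.19 ± 0.05 (0.0468), and PSMG2 increased by 0.27 ± 0.06 (0.0439). PSMC4 had the highest slope there, 0.40 ± 0.23, and did not pass (0.291). The DMSO count was 0 without the 4 or the 8 h arrays, 1 without the 12 h arrays and 8 without the 24 h arrays, and the BAY1238097 count was 0, 0, 1 and 6. Over all genes tested, 0 passed along the DMSO time course without the 4 or the 8 h arrays. Along the BAY1238097 time course 3 and 1 passed in those refits, so these counts of 0 are not particular to proteasome genes. The refits without the 12 or the 24 h arrays are given without their counts over all genes and were not compared with the array.

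Genes that work around the proteasome were set beside the whole array, where 15.4% of genes rose and 14.7% fell. Of 12 tested proteasome-bound and maturation factors 1 rose and 1 fell, 8.33% each way and below those shares, with a median of 0.03. UBLCP1, a phosphatase that acts on the nuclear proteasome, read 9.51, 9.77, 9.70 and 9.57 with BAY1238097, against 9.37, 9.22, 9.14 and 8.94 with DMSO, with no overlap, and rose by 0.47 ± 0.09 (limma adjusted p = 0.0119, 0.066 and 0.0661 without the 8 or 12 h arrays). UCHL5, a deubiquitinase of the cap, fell by 0.39 ± 0.08 (0.0136, 0.0632 without the 12 h arrays). ECPAS, a scaffold that binds the proteasome, and PITHD1 had -0.39 ± 0.12 (0.05, not under the threshold) and 0.22 ± 0.10 (0.143). POMP, the maturation factor of the core, was at -0.13 ± 0.06 (0.139), and PSMF1, an inhibitor, was not above background.

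Of 11 shuttle and unfolding factors 3 rose and 1 fell, with a median of 0.14. The share called was 36.4%, near the 30.1% of all genes tested. NPLOC4 and VCP, partners in extracting ubiquitinated proteins, rose by 0.36 ± 0.09 (limma adjusted p = 0.023) and 0.27 ± 0.06 (0.0142), and FAF2 rose by 0.23 ± 0.06 (0.0306). UBQLN4, a shuttle, fell by 0.33 ± 0.07 (0.017), and RAD23B, another, had -0.30 ± 0.10 (0.0638). Of 3 tested ubiquitin and activation genes 1 rose: UBA6, an alternative ubiquitin-activating enzyme, at 0.31 ± 0.09 (0.0429), while UBA1 had 0.19 (0.433) and UBB 0.02 (0.903). The calls of UBQLN4, UBA6 and FAF2 were lost without the 8, 12 or 24 h arrays, that of VCP without the 8 or 12 h arrays and that of NPLOC4 without the 12 or 24 h arrays (adjusted p = 0.0541 to 0.179).

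Of 8 regulators of proteasome gene transcription 1 rose, which is 12.5% against 15.4% of all genes tested, with a median of 0.03. NGLY1, the glycanase that processes NFE2L1, read 9.67, 9.86, 9.89 and 10.14 with BAY1238097, against 9.13, 9.43, 9.50 and 9.83 with DMSO, and rose by 0.42 ± 0.06 (limma adjusted p = 0.00599). NFE2L1, which activates proteasome genes when the proteasome is impaired, had -0.05 ± 0.07 (0.598). NFYA, a subunit of NFY, had 0.19 ± 0.06 (0.0524), and MAFF and MAFG had 0.19 and -0.18, none of which passed. BACH1 was not above background on any array. Under median scaling the rises of UBA6, NPLOC4, VCP, FAF2 and NGLY1 no longer passed (adjusted p = 0.219, 0.115, 0.555, 0.841 and 0.129), and with background correction as well FAF2 was at -0.0073.

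**Figure D5:**
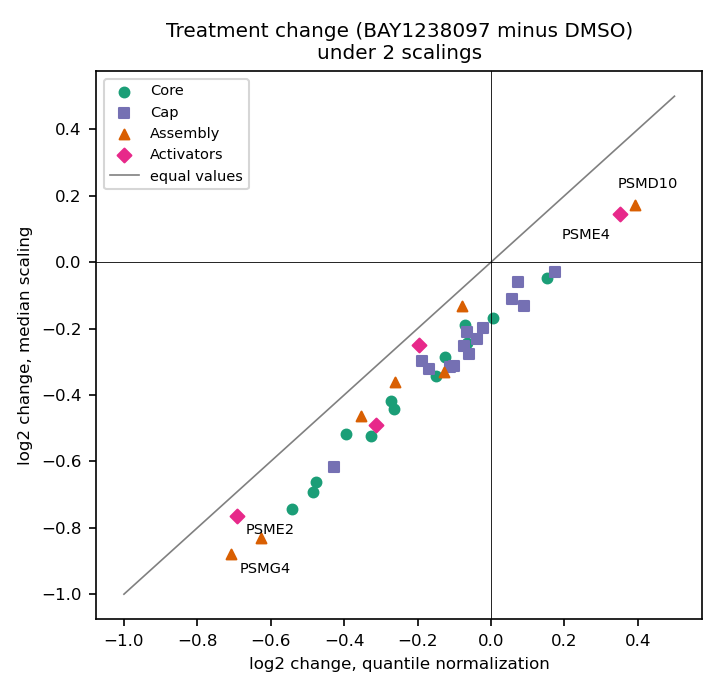
Treatment change (log2, BAY1238097 minus DMSO) of the 38 tested proteasome genes under quantile normalization (x axis) and under median scaling (y axis), by group, with a line of equal values. Every gene lies below the line, and PSMD10 and PSME4 keep values above 0.

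The scaling moved every proteasome gene the same way. Under median scaling the median change was -0.31 over the 38 genes and -0.07 over all genes tested, and with background correction before median scaling it was -0.35 and -0.10. Relative to the median of all genes, the proteasome median was lower by 0.14 with quantile normalization, by 0.23 with median scaling and by 0.25 with both steps. The genes tested differ in brightness, and the proteasome genes were not set beside genes of like brightness. All 11 fallers kept their call and direction under median scaling, and 10 more genes passed, all lower: PSMA1, PSMB2, PSMB3, PSMB7, PSMC6, PSMD11, PSMD12, PSMD14, PSME3 and PSMG2. Over 14 alternatives PSMA3, PSMG1 and PSMG4 passed in every one. The share of all genes tested that did so is not given here, so this was not compared with the array. Several alternatives use nearly the same values as the main fit. The second, dim PSMG4 probe gave -0.00 (limma adjusted p = 0.999).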

How the data were processed

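RNA of DOHH2 cells was hybridised to 8 Illumina bead arrays, 4 per treatment. The authors' deposited intensity values are linear, neither normalised nor background-subtracted, for 47231 probes, and no detection p-values were used here. A further 10 columns without a name hold 0 values. The authors' deposited log2 values differed by at most 0.00126 from quantile-normalised log2 intensities without background correction, which were used here. The labels name no scanner software. The brightness of 433 olfactory receptor probes served as background; a probe was kept where its share of brighter ones was under 0.05 on at least 4 arrays, which left 18711 probes and 10475 genes, each by its brightest probe. This replaced the planned detection p-values.

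Gene names came from the platform annotation (30113 probes with 1 symbol, 8 with several, 17110 without). Promoters are from RefSeq GRCh38.p14; the array files name no build. limma 3.58.1 in R 4.3.3 fitted treatment with time as a factor, treatment by log2 hours, and slopes on log2 hours per group, with Benjamini-Hochberg adjustment over all genes. Errors are SE. Each time holds 1 array per treatment, and deviations from the group means correlated between these pairs with r = 0.59, 0.436, 0.678 and 0.483 at 4, 8, 12 and 24 h, all over 0.1, so time was kept as a block. At a single time there is no test. Figures used matplotlib 3.10.9. Steps were tested on simulated data.

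The members and the 62 list genes, 56 of them on the array, were chosen with earlier results of these data known. Named with values were PSMB5, PSMB6 and PSMB7, up to 5 genes with the largest absolute change in each group, the 2 largest slopes in each direction, up to 4 genes of each other list, genes below background, and MYC. FAF2, NFE2L1, POMP, PSMD14 and the second probes were chosen after their values were seen. Alternatives were 2 scalings, background correction, 2 probe filters, the mean of probes, the deposited values, a variance trend, array weights, no block, and leaving out each time.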

Additional observations from a re-analysis of the deposited data

Results flagged for a closer look

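In 3 of 76 groups of 4 arrays, 1 array stood apart from the others by more than the critical value of Dixon's test; chance gives this in about 1 of 20 groups. PSMB4, a beta subunit, read 10.97 with BAY1238097 at 24 h, against 11.30 to 11.35 at the other times of that treatment. PSMD1, a scaffold subunit of the base, read 8.85 with BAY1238097 at 24 h, against 9.27 to 9.30 at the other times, and 9.35 with DMSO at 12 h, against 9.15 at the other times. Neither gene passed the treatment test.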

How the results depend on the processing

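Quantile normalization with background correction, the deposited values, no filter on dim probes, the filter on all 8 arrays and the variance trend each kept all 13 treatment calls. Median scaling, without and with background correction, gave 21 calls in each case, 21 lower and 0 higher, with a median change of -0.31 and -0.35; over all genes 75% and 77.9% of calls were lower, against 48.7%. Array weights gave 19 calls, 17 of them lower, beside 2383 genes lower and 2499 higher over all genes. The mean of a gene's probes gave 15, 13 of them lower, beside 1592 lower and 1614 higher over all genes. Without the replicate block, that is with time left out of the model, 6 genes passed, 5 lower and 1 higher. Over all genes 763 were lower and 725 higher in that fit. PSMA6, PSMB5, PSMB6, PSMC3, PSMD5, PSMG3 and PSME4 were lost. Leaving out the arrays of 1 time gave 6 to 19 calls, 6 to 17 lower and 0 to 2 higher, with medians of -0.17 to -0.09. Over all genes these fits gave 612 to 2037 lower and 642 to 2086 higher. Without the 12 h arrays 6 of the 13 remained. None of the 13 proteasome genes called in the main fit reversed. Of the genes that did not pass there, PSMA4, PSMB4, PSMD2, PSMD3, PSMD4 and PSMD6 went from above 0 to below 0 under median scaling. FAF2 reversed to -0.0073 under median scaling with background correction. For treatment by time, median scaling gave 1 call, with background correction 2, the variance trend 1, and leaving out a time 0 to 4. Array weights gave 0 calls there, and 0 over all genes. For the DMSO trend, main count 3, both median scalings gave 0, array weights 1, and leaving out a time 0 to 8. For the BAY1238097 trend, main count 1, both median scalings gave 0, background correction with quantiles 3, no filter 2 and the stricter filter 2. The mean of probes gave 3 there, the variance trend 3, and leaving out a time 0 to 6. Under both median scalings 0 of all genes tested passed either trend, so a count of 0 there is not particular to proteasome genes. The other counts of the time tests in these alternatives are given without those over all genes. The cause of these shifts was not tested. With 1 array per treatment and time and no background correction, changes of dim genes such as PSMD5, PSMD9 and PSMG3 may be compressed.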

Other observations

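Besides PSMB8, PSMB9 and PSMB10, 4 symbols outside the subunit list begin like those of its members, and none of the 4 passed the treatment test. PSMC3IP, a recombination factor, was at -0.23 (limma adjusted p = 0.203), and PSME3IP1, which binds PSME3, at -0.19 (0.171). The antisense genes PSMD6-AS2 and PSMG3-AS1 were at 0.03 (0.744) and 0.17 (0.0968), the second of them above background on 3 of 4 BAY1238097 arrays and 1 of 4 DMSO arrays.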
